A study of Mus musculus with 8 samples.

Results

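The genes described here encode soluble guanylate cyclase and the proteins through which cyclic GMP acts in contractile and vascular cells. They were chosen by symbol: the cyclase subunits Gucy1a1, Gucy1a2 and Gucy1b1, the cyclic GMP-dependent protein kinases Prkg1 and Prkg2, and the kinase's effectors Mrvi1, Vasp and Kcnma1. All 8 were among the 24848 gene rows of the files. The study measured messenger RNA by bulk sequencing in tibialis anterior, a muscle of the lower leg, from male Leprdb/db mice. These mice lack a working leptin receptor and are used as a model of obesity with type 2 diabetes. Every mouse had hind limb ischemia surgery, in which blood flow to a limb is cut, and muscle was taken 28 days later. The placebo group (4 libraries) ate control chow without drug. The praliciguat group (4 libraries) had free access to chow with 75 ppm praliciguat, meant to match the peak plasma concentration after oral dosing at 10 mg/kg/day. Both groups were on their diets for 31 days, from day -3 relative to surgery. Muscle without ischemia and mice with a working receptor were not analysed here, so every value below belongs to ischemic diabetic muscle. Whether each library stands for its own animal is not spelled out by the labels, and the p-values reflect variation among the libraries, which may be technical.

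Soluble guanylate cyclase is a heterodimer of 1 alpha and 1 beta subunit. Nitric oxide binds the heme held by the beta subunit, and the enzyme then makes cyclic GMP from GTP. Praliciguat belongs to the sGC stimulators, which act on this enzyme directly and increase its response to nitric oxide. Cyclic GMP activates protein kinase G: PKG I, encoded by Prkg1, is the main form in smooth muscle, and PKG II, encoded by Prkg2, is a membrane-bound form best known from intestine, kidney and growth plate. In vascular smooth muscle PKG I lowers calcium and relaxes the vessel, in part through IRAG at the internal calcium store and through the large-conductance potassium channel at the cell surface. RNA levels do not measure cyclic GMP, kinase activity or phosphorylation.

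Promoter windows of the subunits and kinases are shown because the RNA of these genes is compared below. Each window holds the 250 bases before an annotated start, 5′ to 3′ in the direction of the gene, from RefSeq on GRCm38.p6. Windows were found for 7 of the 8 genes, 10 windows in all. Of these, 3 (both of Gucy1a1 and that of Kcnma1) overlap exons annotated by GENCODE M21 and are not printed. RefSeq exons were not checked. The RefSeq span of Prkg1 ends at chr19:31765268 and takes in most of its first window and all of its second. Both Prkg1 windows may therefore hold sequence transcribed from another start. Capitals mark matches on either strand to 3 short motifs, which do not overlap each other here. The first is the E-box CAGCTG. Another is the GC box core GGGCGG, whose form on the opposite strand appears in the second Prkg1 window. The last is CCAAT, whose form on the opposite strand reads ATTGG. The windows lie at chr9:3532099-3532348 (+) for Gucy1a2, chr3:82074712-82074961 (-) for Gucy1b1, chr19:31765034-31765283 (-) for the first start of Prkg1 and chr19:31664371-31664620 (-) for its second start.
Gucy1a2: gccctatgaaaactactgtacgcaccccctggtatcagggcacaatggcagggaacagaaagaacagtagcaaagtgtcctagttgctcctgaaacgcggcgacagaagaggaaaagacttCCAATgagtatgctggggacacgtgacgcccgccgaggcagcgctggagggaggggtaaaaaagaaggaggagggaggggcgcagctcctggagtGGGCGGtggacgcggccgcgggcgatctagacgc
Gucy1b1: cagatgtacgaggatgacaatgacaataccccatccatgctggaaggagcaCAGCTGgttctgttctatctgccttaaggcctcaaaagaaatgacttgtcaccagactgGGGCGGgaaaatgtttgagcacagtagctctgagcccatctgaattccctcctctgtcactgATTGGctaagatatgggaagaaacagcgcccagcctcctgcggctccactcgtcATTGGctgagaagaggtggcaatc
Prkg1 start 1: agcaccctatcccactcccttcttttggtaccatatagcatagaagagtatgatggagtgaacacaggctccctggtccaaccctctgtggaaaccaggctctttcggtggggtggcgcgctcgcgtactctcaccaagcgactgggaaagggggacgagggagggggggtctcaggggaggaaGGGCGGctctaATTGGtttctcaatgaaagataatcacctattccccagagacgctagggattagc
Prkg1 start 2: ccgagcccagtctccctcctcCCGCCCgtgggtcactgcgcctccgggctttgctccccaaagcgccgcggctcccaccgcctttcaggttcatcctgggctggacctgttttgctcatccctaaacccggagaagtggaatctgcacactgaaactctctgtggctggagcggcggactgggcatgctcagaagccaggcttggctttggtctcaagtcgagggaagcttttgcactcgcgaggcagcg

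GC content was 59.6% in the Gucy1a2 window, 51.2% for Gucy1b1, and 55.2% and 62.8% for the first and second starts of Prkg1, beside a median of 52.4% over 32851 RefSeq windows of the same length. The GC box core matched in all 4 printed windows and in 32.7% of all windows. CCAAT matched in all but the second Prkg1 window, and in 33.8% of all windows. The E-box, a form bound by myogenic factors, matched in the Gucy1b1 window and in 13.0% of all windows. It also matched in the first Gucy1a1 window, which is not printed, 10 to 5 bases before the start. The windows of Vasp and Mrvi1 held none of the 3. No window of these genes held TATAAA (12.4% of all windows), a CArG box (1.47%), the element bound by serum response factor in smooth muscle genes, or a MEF2 site (2.92%). A match is a run of letters and was not tested for binding.

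The genes lie on 6 chromosomes. Gucy1a1 (chr3:82092427-82145946) and Gucy1b1 (chr3:82032004-82074711) are neighbours on the minus strand, 17715 bases apart with 0 annotated genes between them. Gucy1a2 lies at chr9:3532349-3905791, Prkg1 at chr19:30564487-31765268, Prkg2 at chr5:98929773-99037375, Mrvi1 at chr7:110868257-110982909, Vasp at chr7:19256929-19271854 and Kcnma1 at chr14:23292288-24005110. The library kit marks strand, but whether the counting used it is unknown here. Exons of Mrvi1 overlap the antisense gene Gm16336, exons of Kcnma1 overlap 4930519K11Rik on the opposite strand, and exons of Gucy1a1 overlap the microRNA Mir7010, so the values of these 3 genes are uncertain to that extent.

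The libraries held 21099764 to 31896205 expected counts. At that depth 3 counts, the limit that a count of 0 allows, were worth 0.0875 to 0.134 CPM (counts scaled to library size), and each member lay above this limit in each library. This limit covers counting error only. Skeletal muscle fibre markers summed to 127400 to 160400 CPM in placebo and 130800 to 187200 CPM with praliciguat, so RNA of the labelled tissue was present in each library. In bulk muscle, fewer cells of a type and less RNA per cell cannot be told apart. Title numbers form 2 runs, a lower one with replicates 1 and 2 of both groups and an upper one with replicates 3 and 4. What the runs are is not stated, so values are also given within each.

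Compared per unit of transcript length, as deposited TPM (RSEM's length-scaled transcript abundance), Vasp was the most abundant of the 8 in placebo muscle. Its level was 28.7 ± 2.63 TPM (mean ± SD, n = 4), above 85.8% of all rows by the mean of the 8 libraries. Levels, shares and ratios below are likewise mean ± SD. After a log2 fold change, or log2 value between groups, ± gives the SE of the edgeR fit. Prkg1 followed at 14.5 ± 3.50 TPM and Kcnma1 at 11.1 ± 2.15 TPM, and their ranges overlapped. Below them stood Gucy1a1 at 6.56 ± 1.55 TPM and Gucy1b1 at 6.44 ± 0.954 TPM, with ranges that overlapped each other and lay under that of Kcnma1. Mrvi1 had 2.91 ± 0.555 TPM. Prkg2 at 0.603 ± 0.180 TPM and Gucy1a2 at 0.538 ± 0.0465 TPM were the lowest, with overlapping ranges. The most abundant cyclase subunits in this muscle were thus alpha-1 and beta-1, and the kinase transcripts were mostly those of Prkg1. With praliciguat the levels were 25.9 ± 7.06 TPM for Vasp, 11.5 ± 3.82 TPM for Prkg1 and 6.02 ± 0.997 TPM for Gucy1a1. In treated muscle Kcnma1 stood at 6.58 ± 4.91 TPM, with 2.95 and 2.14 TPM in replicates 3 and 4, below both Gucy1a1 and Gucy1b1 in those libraries.

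**Figure D1:**
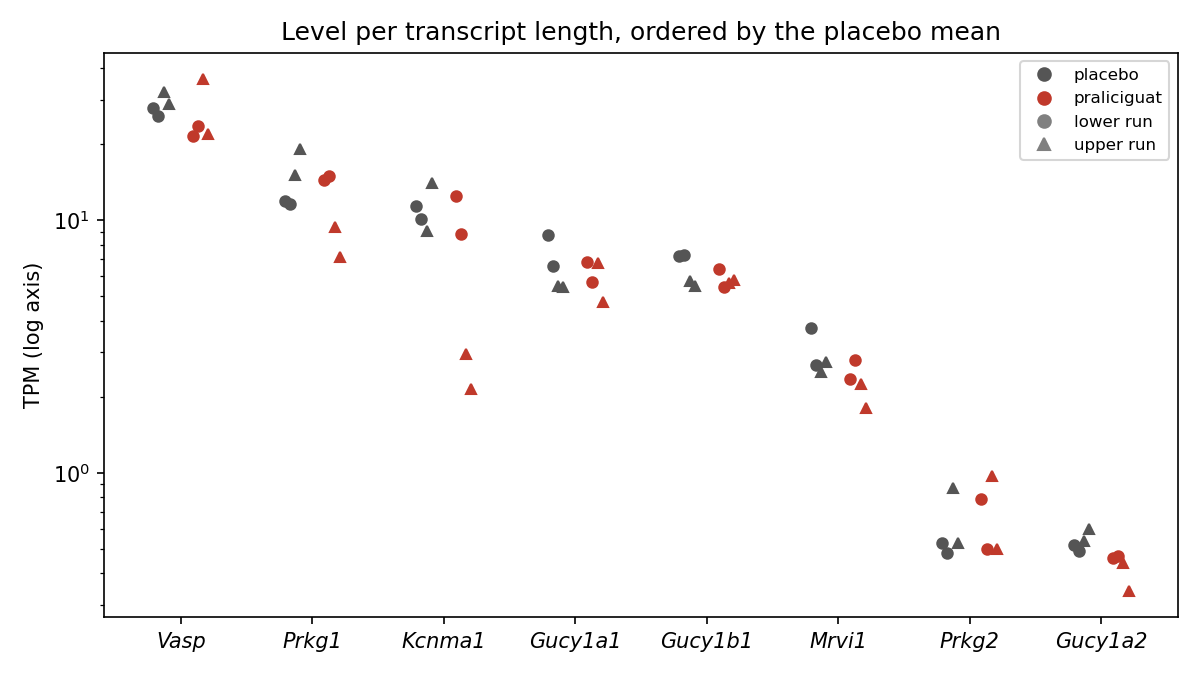
Level of each gene in TPM (log axis) in each library, placebo and praliciguat, with the gene order taken from the placebo mean. Vasp lies highest at 25.98 to 32.25 TPM in placebo and Gucy1a2 and Prkg2 lie below 1 TPM in every library.

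Against placebo, none of the 8 genes changed past the threshold with praliciguat. An adjusted p under 0.05 by edgeR's quasi-likelihood test with Benjamini-Hochberg adjustment counted as a call, and 0 of 13569 genes tested (0%) were called. Of the 8, 0 had an unadjusted p under 0.05, beside 778 (5.73%) of all genes tested (3.78% lower and 1.95% higher with praliciguat). Fold changes were below 0 for 7 of the 8, with a median log2 value of -0.20, beside 44.8% of all genes below 0 and a median of 0.02. DESeq2 called 124 of 14738 genes (0.841%), none of them among these 8.

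**Figure D2:**
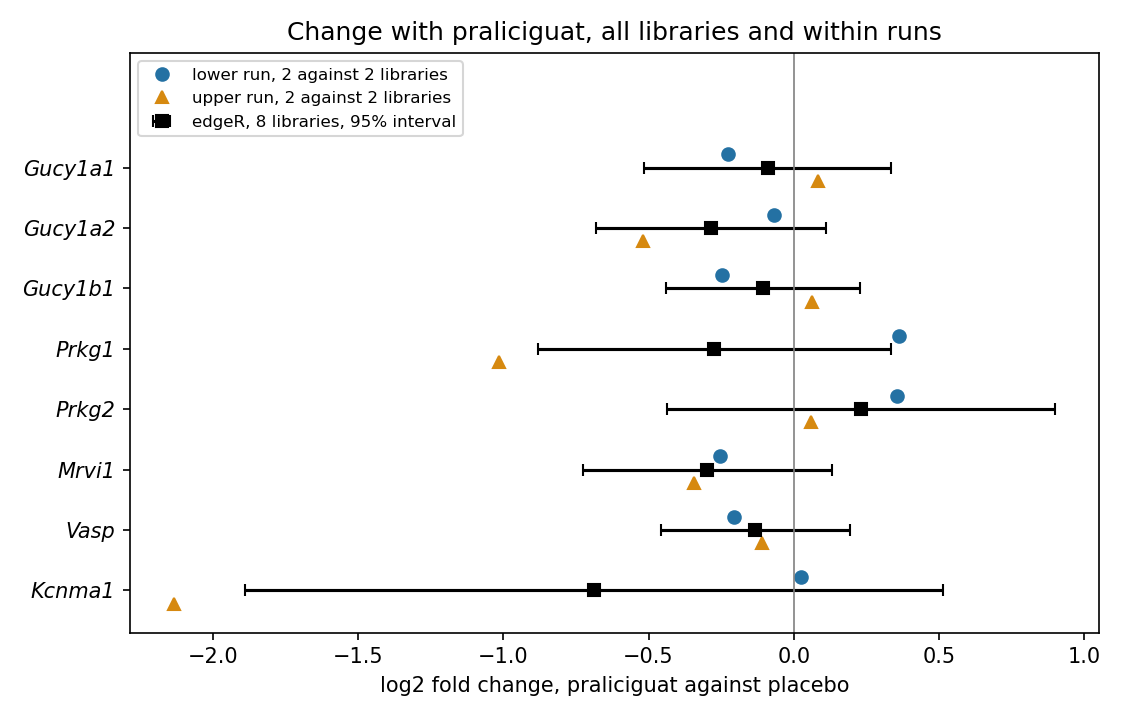
Log2 fold change, praliciguat against placebo, of each gene from edgeR with its 95% confidence interval, with the values within the lower and the upper run beside it. Every interval over all 8 libraries includes 0, and the run values of Kcnma1 (0.02 and -2.13) and Prkg1 (0.36 and -1.01) lie farthest apart.

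Gucy1a1 encodes alpha-1, the alpha subunit most common in smooth muscle and platelets. In placebo replicates 1 to 4 it had 22.2, 17.5, 13.3 and 13.5 CPM, and with praliciguat it had 18.2, 15.6, 16.4 and 12.2 CPM. All the treated values but the lowest fell inside the placebo range. Its log2 fold change was -0.09 ± 0.19 (SE, 95% interval -0.51 to 0.34, edgeR adjusted p = 0.989). Within the runs the difference was -0.23 and 0.08 on the log2 scale, so its sign was not shared.

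Gucy1b1 encodes beta-1, the subunit that carries the heme. It had 12.4, 13.1, 9.44 and 9.18 CPM in placebo and 11.6, 9.99, 9.30 and 10.2 CPM with praliciguat, all of them inside the placebo range. The log2 fold change was -0.11 ± 0.15 (95% interval -0.44 to 0.23, edgeR adjusted p = 0.984). Within placebo both partners were lower in the upper run than in the lower, by log2 values of -0.56 for Gucy1a1 and -0.45 for Gucy1b1, which is more than either group difference.

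Gucy1a2 encodes alpha-2, the alternative alpha subunit, which in brain sits at synaptic membranes. It had 3.96, 3.94, 3.91 and 4.39 CPM in placebo and 3.69, 3.85, 3.18 and 2.59 CPM with praliciguat. It was the only one of the 8 genes whose groups did not overlap: the highest treated library, at 3.848 CPM, lay just under the lowest placebo library, at 3.911 CPM. Of all genes tested, 2.54% lay wholly lower with praliciguat and 1.32% wholly higher, 3.86% in all. The log2 fold change was -0.29 ± 0.18 (95% interval -0.68 to 0.11), with an unadjusted p of 0.138 and an adjusted p of 0.984 by edgeR. The counts behind it were 73 to 121 a library. Most of the difference lay in the upper run, at -0.52 on the log2 scale, beside -0.07 in the lower.

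**Figure D3:**
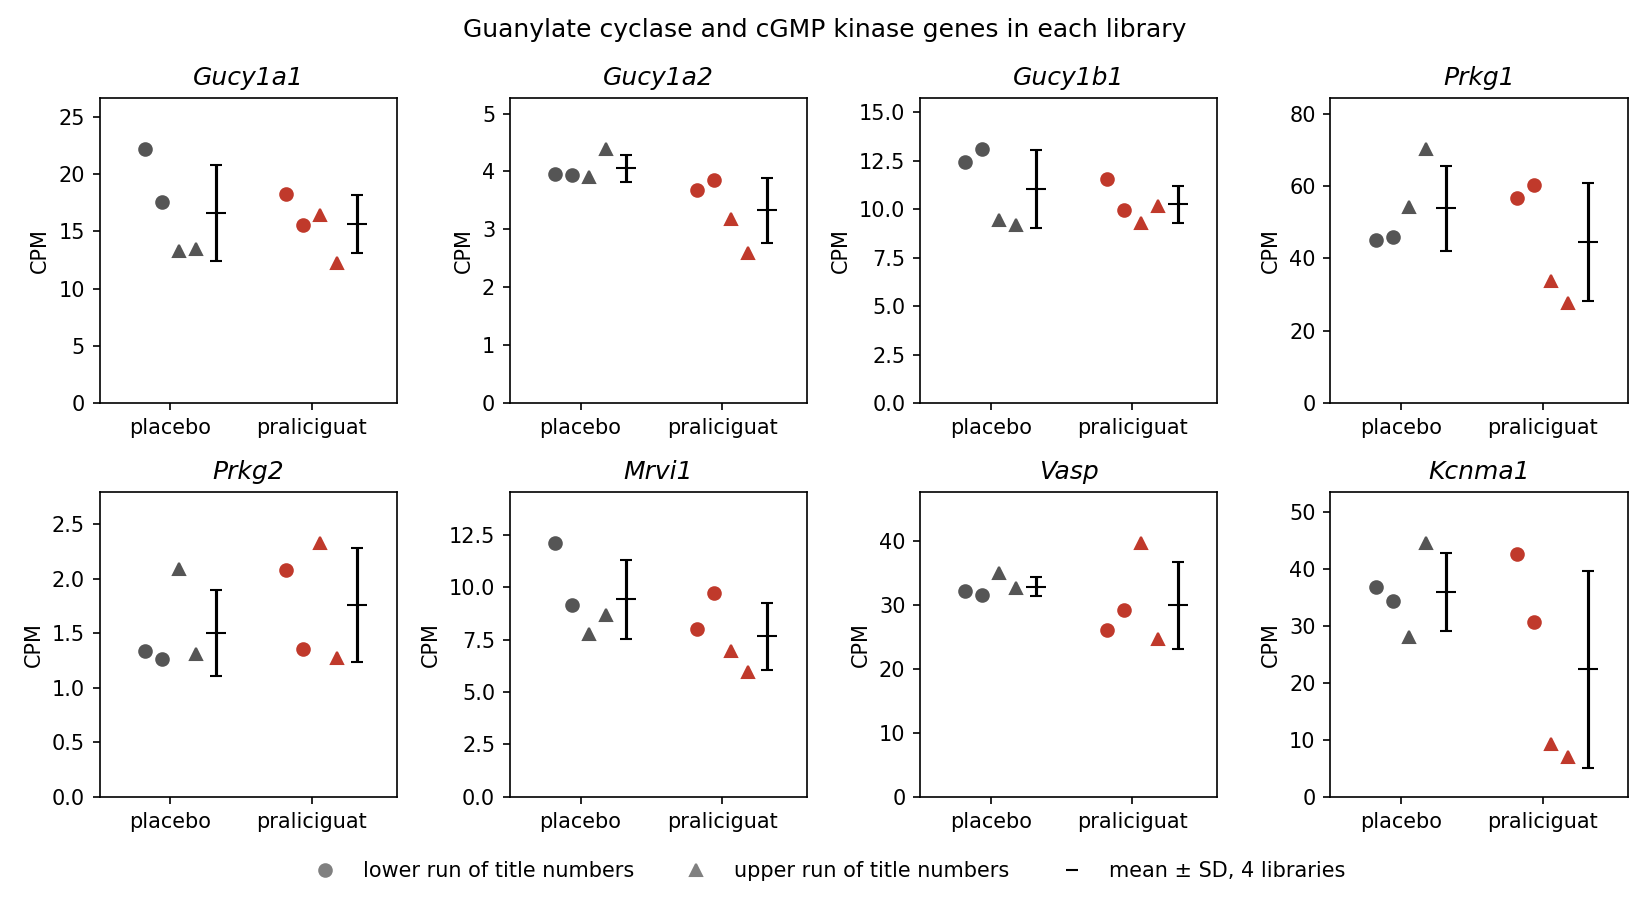
CPM of each gene in each library, 1 panel a gene, with the group mean and SD and with markers for the lower and upper runs of title numbers. Praliciguat replicates 3 and 4 lie lowest for Kcnma1, at 9.18 and 6.99 CPM, and for Prkg1, at 33.7 and 27.6 CPM, while the groups of Gucy1a2 alone do not overlap.

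Prkg1 encodes PKG I, which relays cyclic GMP to the contractile machinery. It had 45.0, 46.0, 54.2 and 70.3 CPM in placebo and 56.9, 60.3, 33.7 and 27.6 CPM with praliciguat. The treated libraries split: replicates 1 and 2 lay inside the placebo range and replicates 3 and 4 lay below all of it. Over all 8 libraries the log2 fold change was -0.27 ± 0.27 (95% interval -0.88 to 0.33, edgeR adjusted p = 0.984). Within the runs it was 0.36 in the lower and -1.01 in the upper. The gene Cstf2t lies inside the Prkg1 locus and shares no exon with it.

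Prkg2 encodes PKG II. It had 1.34, 1.27, 2.09 and 1.31 CPM in placebo and 2.08, 1.36, 2.33 and 1.28 CPM with praliciguat, from 30 to 80 counts a library. It was the only one of the 8 with a fold change above 0, at a log2 value of 0.23 ± 0.30 (95% interval -0.44 to 0.90, edgeR adjusted p = 0.984). The groups overlapped, and replicate 3 was the highest library within each.

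Mrvi1 encodes IRAG, a PKG I substrate that restrains calcium release through the inositol trisphosphate receptor. It had 12.1, 9.15, 7.75 and 8.67 CPM in placebo and 8.003, 9.72, 6.97 and 5.96 CPM with praliciguat. The lowest values of all were the treated libraries of the upper run, and the groups overlapped. The log2 fold change was -0.30 ± 0.19 (95% interval -0.73 to 0.13, edgeR adjusted p = 0.984), and the runs shared its sign at -0.25 and -0.34.

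Vasp encodes an actin-regulating protein whose phosphorylation by PKG is widely used as a readout of cyclic GMP signalling. It had 32.2, 31.6, 35.0 and 32.6 CPM in placebo and 26.1, 29.2, 39.7 and 24.7 CPM with praliciguat. The placebo libraries were close together, with a coefficient of variation of 4.55%, and all the treated libraries lay outside their range, 3 below it and replicate 3 above it. The log2 fold change was -0.13 ± 0.15 (95% interval -0.46 to 0.19, edgeR adjusted p = 0.984). Without praliciguat replicate 3 it was -0.30. Praliciguat replicate 3 also had the highest summed leukocyte markers, 545.4 CPM beside 50.57 to 175 CPM in the other libraries. The same held for fibroblast markers, at 5994 CPM beside 777.1 to 2824 CPM. Platelet markers were highest there too, at 20.14 CPM beside 7.707 to 13.17 CPM. The part of these cell types in its Vasp level was not tested.

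Kcnma1 encodes the pore of the large-conductance, calcium-activated potassium channel (BK), whose opening hyperpolarises smooth muscle. It had 36.8, 34.3, 28.1 and 44.6 CPM in placebo and 42.6, 30.6, 9.18 and 6.99 CPM with praliciguat. Replicates 1 and 2 of the treated group lay inside the placebo range, while replicates 3 and 4 lay far below it, with 315 and 197 counts against 788 to 1228 in the other libraries. The coefficient of variation was 76.9% with praliciguat and 19.0% in placebo. The log2 fold change was -0.69 ± 0.53 (95% interval -1.89 to 0.51, edgeR adjusted p = 0.984). It was 0.02 in the lower run and -2.13 in the upper run, and -1.04 with the run as a term of the edgeR fit (adjusted p = 0.691). Without that term the log2 fold change was -0.677 with DESeq2 and -1.1 with limma-voom, so its size depends on the method.

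The split between the runs was tested directly for each gene, as a group by run interaction in edgeR chosen after the values were seen. For Prkg1 the difference was lower in the upper run than in the lower by a log2 value of -1.38 ± 0.21 (SE, unadjusted p = 0.000159, adjusted p = 0.124). For Kcnma1 it was -2.21 ± 0.36 (unadjusted p = 0.000402, adjusted p = 0.145 in edgeR). They ranked 16 and 35 of 13569 genes by p, and neither passed the threshold. Of all genes 16.3% had an unadjusted interaction p under 0.05 and 2 (0.0147%) were called. The other 6 genes had adjusted p-values of 0.473 to 0.9.

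Relative to the placebo mean of log2 CPM, praliciguat replicates 3 and 4 stood at -1.94 and -2.33 for Kcnma1 and at -0.65 and -0.94 for Prkg1. The same libraries stood at -0.41 and -0.63 for Mrvi1 and at -0.34 and -0.63 for Gucy1a2. Summed endothelial markers in these libraries were 675.4 and 556.3 CPM, beside 815.8 to 1011 CPM in placebo. They were 817 and 763.9 CPM in praliciguat replicates 1 and 2, the latter below the placebo range. Kcnma1 and Prkg1 of replicates 1 and 2 lay inside their placebo ranges. In praliciguat replicates 3 and 4 summed Schwann and nerve markers were 127.2 and 93.88 CPM, beside 143.7 to 326.4 CPM in placebo. Most of the smooth muscle and pericyte sum came from Des, desmin, which skeletal fibres also express. Without Des the sums were 1600 and 1895 CPM in replicates 3 and 4, below the 1925 to 2213 CPM of placebo, and 2069 and 2196 CPM in replicates 1 and 2, inside it. With Des they were 5189 and 6110 CPM, beside 5864 to 6226 CPM, and only replicate 3 lay below. Leaving out Des was chosen after the data were seen. Single markers of this list did not move alike in praliciguat replicates 3 and 4. Rgs5 had 431 and 472.9 CPM there, beside 625.3 to 760.4 CPM in placebo. Smtn, Mylk and Kcnj8 also lay below their placebo ranges in both. Acta2, Myh11 and Tagln lay inside theirs, and Cspg4 lay above its range. The part of these cell types in the low Kcnma1 and Prkg1 values was not tested.

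**Figure D4:**
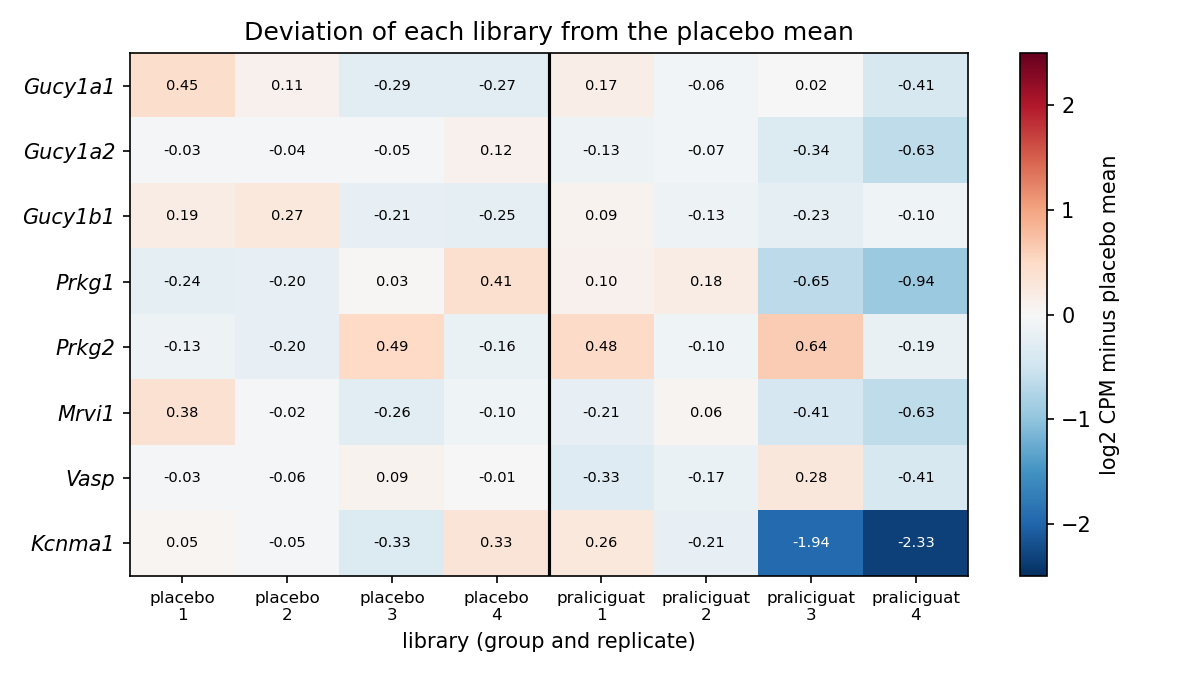
Difference of log2 CPM from the placebo mean for each gene (row) in each library (column). Praliciguat replicates 3 and 4 show the largest negative values, for Kcnma1 (-1.94 and -2.33) and Prkg1 (-0.65 and -0.94).

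The make-up of the enzyme and kinase pools, read per transcript length from TPM, did not differ beyond the spread between libraries. Alpha-2 made up 7.87% ± 1.95 of alpha subunit transcripts in placebo and 6.67% ± 0.662 with praliciguat (exact two-sided permutation p = 0.314, 0.629 adjusted over 4 measures). The log2 ratio of alpha subunits to beta-1 was 0.13 ± 0.17 in placebo and 0.13 ± 0.23 with praliciguat (exact permutation p = 1.0), so alpha and beta-1 transcripts were near parity in both groups. Prkg2 made up 4.09% ± 1.13 of kinase transcripts in placebo and 6.08% ± 2.58 with praliciguat (exact permutation p = 0.2, adjusted 0.629). The Prkg1 to Gucy1b1 log2 ratio was 1.15 ± 0.55 in placebo and 0.91 ± 0.51 with praliciguat (exact permutation p = 0.629, adjusted 0.838). With 4 libraries a group the smallest p this test can give is 0.0286. Within the runs the Prkg1 to Gucy1b1 ratio differed by 0.61 in the lower and -1.08 in the upper, and the Prkg2 share by 0.111 and 3.87 percentage points. The alpha-2 share differed by 0.665 percentage points in the lower run and -3.05 in the upper, and over all libraries by -1.19 from TPM and -2.61 from CPM.

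The files give each gene's mean transcript length, weighted by the abundance RSEM assigned to its transcripts, and a shift in it marks a shift between transcripts. It varied between libraries for 6 of the 8 genes, over a range of 0.0551% of the longest value for Gucy1b1 up to 4.43% for Vasp. Vasp was shortest in praliciguat replicate 4 at 2151.04 bases and reached 2250.75 bases elsewhere. None of the 6 differed between groups (exact two-sided permutation p 0.429 to 0.943, adjusted 0.943 for each).

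Across the 8 libraries, 21 of the 28 pairs of these genes had a positive Pearson correlation of log2 CPM, and 0 pairs had an adjusted p under 0.05 in the exact permutation test. The pairs share libraries, depth and scaling. Gucy1a2 and Kcnma1 had r = 0.926 and Spearman's rho = 0.738, with exact permutation p of 0.00476 and 0.0458 and adjusted values of 0.0537 and 0.537. For Prkg1 and Kcnma1 r was 0.897 (exact permutation p = 0.00575, adjusted 0.0537) and rho was 0.714 (p = 0.0576). For Gucy1a2 and Prkg1 r was also 0.897 (exact permutation p = 0.00355, adjusted 0.0537), with rho = 0.548 (p = 0.171). Praliciguat replicates 3 and 4 were the 2 libraries farthest from the median of the first gene of each pair. Without them r fell to 0.345, 0.334 and 0.437 over the other 6 libraries. Leaving out extreme libraries narrows the range and can by itself lower r. With 4 libraries each, the groups are too small for a correlation of their own. The neighbouring genes Gucy1a1 and Gucy1b1 had r = 0.728 (exact permutation p = 0.0438, adjusted 0.175) and rho = 0.571 (p = 0.151). Leaving out the farthest libraries there, placebo replicate 1 and praliciguat replicate 4, gave r = 0.754.

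For 6 of the genes, those tested genes with the highest Pearson correlation over the 8 libraries are named here as a description. Nearest to Gucy1a1 were Meox2 (r = 0.986), a homeobox factor of muscle and vessel, Pde9a (0.983), a cyclic GMP-specific phosphodiesterase, and Rps15 (0.983). Nearest to Gucy1b1 were Asna1 (0.964), Exosc7 (0.943) and Fam162a (0.934). Prkg1 was nearest to Lonrf1 (0.978), Senp2 (0.975) and Exosc9 (0.973). Mrvi1 was nearest to St6galnac2 (0.978), Snf8 (0.97) and Rapgef3 (0.968), the last an exchange factor activated by cyclic AMP. Vasp was nearest to Tor4a (0.972), Fgd3 (0.964) and Sdc3 (0.954). Kcnma1 was nearest to Ccdc85a (0.988), Exph5 (0.988) and Arhgap31 (0.976), and 32 genes reached an r of 0.95 with it, beside 17 for Prkg1 and 6 for Gucy1a1.

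Other genes that make, remove or bind cyclic GMP were counted from a list of 39, of which 23 could be tested. None was called by edgeR in either direction, and Nos3 was called by DESeq2. Fold changes were below 0 for 14 of the 23, beside 44.8% of all genes tested, with a median log2 value of -0.07. In 3 of the 23, Nos3 among them, the treated libraries lay wholly lower, beside 2.54% of all genes tested. Nos3, the endothelial nitric oxide synthase that supplies the cyclase's ligand in vessels, had the lowest p. Its placebo libraries averaged 24.0 ± 2.67 CPM and the treated libraries 15.7 ± 1.92 CPM, without overlap, a log2 value of -0.61 ± 0.12 (adjusted p = 0.212 by edgeR and 0.00977 by DESeq2). Pde10a, a phosphodiesterase that degrades cyclic AMP and cyclic GMP, had 4.37 ± 0.479 and 2.66 ± 0.500 CPM (log2 value -0.71 ± 0.19, edgeR adjusted p = 0.385). The natriuretic peptides Nppa and Nppb were at 0 in every library, which allows up to 0.134 CPM in the shallowest.

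Among 26 tested genes of a list of 27 other PKG substrates and partners, none was called by either tool. Fold changes were below 0 for 18, beside 44.8% of all genes tested, and the median log2 value was -0.16. Treated libraries lay wholly lower for 1 of the 26, Smtnl1, beside 2.54% of all genes tested. Smtnl1, a smoothelin-like PKG substrate of muscle, averaged 136.6 ± 15.9 CPM in placebo and 82.8 ± 23.2 CPM in treated muscle, without overlap (log2 value -0.72 ± 0.19, edgeR adjusted p = 0.391). Rgs4, a regulator of G protein signalling, ranged over 11.73 to 19.6 CPM in placebo and 7.915 to 12.68 CPM with praliciguat (-0.60 ± 0.20, edgeR adjusted p = 0.584). Itpr1, the calcium release channel that IRAG binds, had 29.9 ± 4.88 and 21.7 ± 3.47 CPM (-0.46 ± 0.15, edgeR adjusted p = 0.588) and was chosen after its values were seen.

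Of 7 partner subunits of the BK channel 3 could be tested and none was called by either tool. Kcnmb1, the beta-1 subunit typical of smooth muscle, averaged 0.959 CPM in placebo and 0.817 CPM in treated muscle. Lrrc52, a gamma subunit, had 3.84 ± 1.27 and 1.44 ± 0.846 CPM (log2 value -1.42 ± 0.44, edgeR adjusted p = 0.515), and Lrrc38, another gamma subunit, had 33.5 ± 5.22 and 38.7 ± 4.44 CPM (0.21 ± 0.13, edgeR adjusted p = 0.984). The subunits of protein kinase A, the cyclic AMP counterpart, had a median log2 value of 0.09 over 6 tested genes, of which neither tool called any. Prkaca, its main catalytic subunit, stood at 187.9 ± 14.1 and 202.7 ± 12.8 CPM and Prkar2b, a regulatory subunit, at 24.0 ± 20.7 and 46.5 ± 25.4 CPM.

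**Figure D5:**
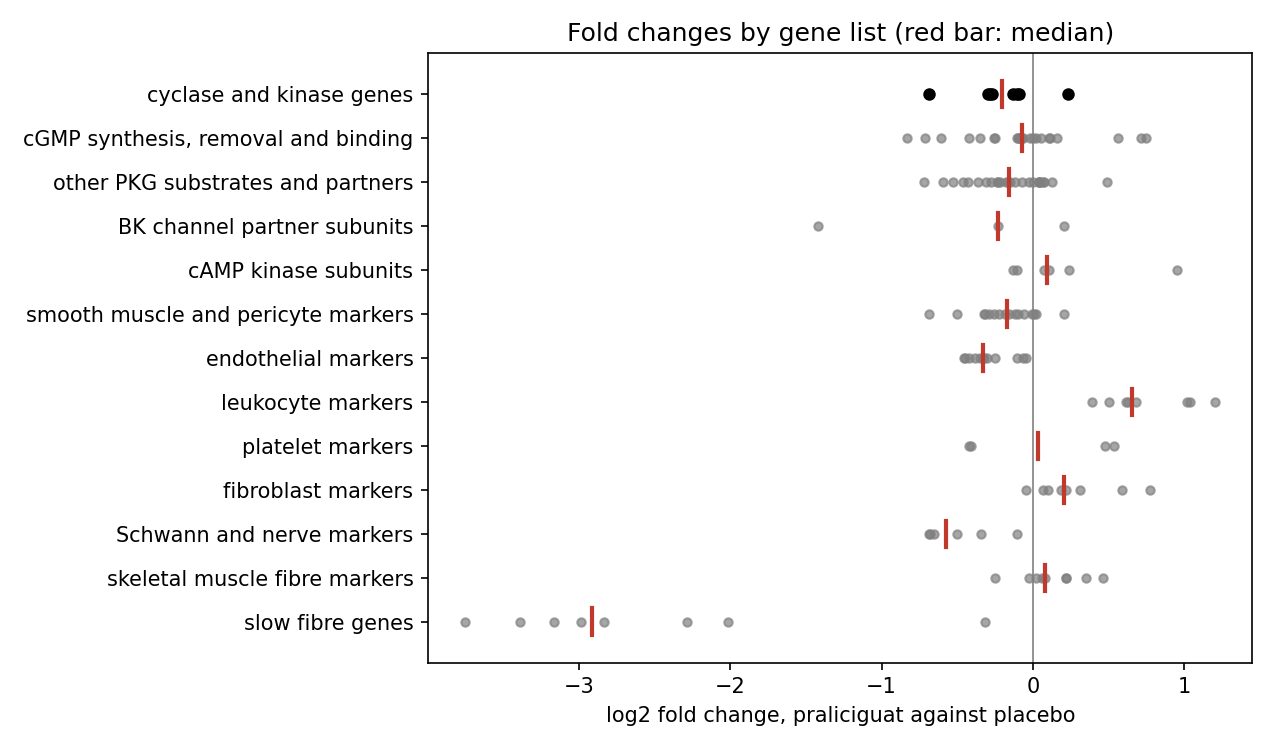
Log2 fold change, praliciguat against placebo, of every tested gene of each list (points) with the list's median. edgeR calls no gene and DESeq2 calls Nos3 and 7 slow fibre genes; the endothelial median is -0.33 and the slow fibre median is -2.91.

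Cell types present in muscle were followed by marker lists, in which edgeR called no gene and DESeq2 called 7, all of them slow fibre genes. All 12 endothelial markers had a fold change below 0, beside 44.8% of all genes tested, with a median of -0.33. They share a cell type and libraries, so these fold changes are not independent. Their sums were 815.8 to 1011 CPM in placebo and 556.3 to 817.0 CPM with praliciguat. Tie1 and Ptprb, receptors of the endothelium, had log2 values of -0.45 ± 0.12 and -0.46 ± 0.11 (edgeR adjusted p 0.391 and 0.352). Smooth muscle and pericyte markers had a median of -0.17 over 16 tested genes, -0.19 without Des and -0.030 without placebo replicate 1. Their sums overlapped with Des and without it. Smtn, a smooth muscle cytoskeletal gene, had -0.26 ± 0.09 and Kcnj8, a pericyte potassium channel, -0.32 ± 0.12 (edgeR adjusted p 0.609 and 0.726). Platelet markers, which matter because platelets carry sGC, PKG I, IRAG and VASP, summed to 7.707 to 13.17 CPM in placebo and 8.512 to 20.14 CPM with praliciguat; of these Ppbp had a log2 value of 0.54 and Itga2b -0.42. The part of any cell type in the values of the 8 genes was not tested.

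Leukocyte markers had a median of 0.66 over 8 tested genes, with Cd68 at 1.02 ± 0.73 and Lyz2 at 1.04 ± 0.76, and fibroblast markers a median of 0.20 over 8, with Col3a1 at 0.78 ± 0.67 and Dpt at 0.59 ± 0.43. Without praliciguat replicate 3, which held 5994 CPM of fibroblast markers, the medians of the leukocyte, fibroblast and platelet lists were -0.35, -0.61 and -0.30. Schwann and nerve markers had a median of -0.58 over 6, with Pmp22 at -0.35 ± 0.19. The median was -0.15 without placebo replicate 1, which held 326.4 CPM of them beside 143.7 to 179.5 CPM in the other placebo libraries. Fast and general muscle fibre markers had a median of 0.08 over 9, with Ckm at 0.22 and Actn3 at 0.46. Slow fibre genes lay lower, with a median of -2.91 over 8 and sums of 751.1 to 1870 CPM in placebo and 256.2 to 438.6 CPM with praliciguat. The slow troponin genes Tnnt1 and Tnni1 had the lowest p, with log2 values of -2.99 ± 0.35 and -2.83 ± 0.38 and an edgeR adjusted p of 0.0777 each. By DESeq2, 7 of these 8 genes were lower past the threshold, with adjusted p of 4.28e-17 for Tnnt1 and 2.04e-12 for Tnni1.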

How the data were processed

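Messenger RNA libraries of ischemic tibialis anterior muscle from 8 samples, 4 per group, were analysed. The authors deposited, per gene and library, expected counts, TPM, FPKM and mean transcript lengths, all made by RSEM per the file headers. Per the submitters' processing notes the tools were FastQC, Trimmomatic, STAR 2.5.3a and RSEM 1.2.28, with build mm10. They do not state how strand was handled. The deposited FPKM values served only as an alternative to TPM for shares and ratios, and 0.828% of expected counts were not whole (tolerance 0.001).

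Expected counts were rounded and fitted with edgeR 4.0.16 (R 4.3.3): filterByExpr, TMM scaling, robust quasi-likelihood fit, group only, Benjamini-Hochberg adjustment over 13569 genes, threshold 0.05. The SE of a log2 fold change is its absolute value divided by the square root of the F statistic. CPM are relative to the TMM-scaled library total, and log2 CPM have a prior count of 2. DESeq2 1.42.0 and limma-voom (limma 3.58.1) were alternatives, as were other scalings, filters, libraries left out and the runs of title numbers. Deposited TPM served for comparisons between genes. Ratios, shares and lengths were tested by exact two-sided permutation over the 70 groupings of the libraries. On simulated counts for 13439 genes edgeR recovered 59% of genes with a log2 change of 1 and 89.9% of those with 2. It also called 8 unchanged genes. The simulation held no difference between runs. In the measured data edgeR called no gene, even Myl2 with a log2 value of -3.75, so large changes could be missed too.

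All 8 members are named. Each list contributes its called genes or else the 2 tested genes of lowest p (1 such gene is not reported here), and 6 members each have the 3 genes of highest correlation. Members and lists were chosen with earlier results of these data known. Loci and promoters come from RefSeq (GRCm38.p6) by symbol, exon overlaps from GENCODE M21. Precision is set by 4 libraries a group and depth.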

Additional observations from a re-analysis of the deposited data

Results flagged for a closer look

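In 16 sets of 4 libraries (8 genes in 2 groups), 2 held a library that stood apart, by a gap to its nearest neighbour that exceeds Dixon's 95% limit as a share of the whole range. Chance alone marks about 1 in 20 groups. For Gucy1a2 in placebo the gap was 0.889 of the range: replicate 4 had 4.39 CPM and the next library 3.96 CPM, so the library that stood apart is the one farthest from the praliciguat values. For Prkg2 in placebo the gap was 0.916 of the range: replicate 3 had 2.09 CPM, from 61 counts, and the next library 1.34 CPM.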

How the results depend on the processing

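None of the 8 genes was called under any of 21 alternatives; the smallest adjusted p among them was 0.118, for Prkg1 in the lower run alone. The number of genes called moved from 0 to 124 with DESeq2, 2 with limma-voom, 3 with the run as a term, 11 at an adjusted p under 0.1, and 0 to 5 when 1 library was left out (5 without placebo replicate 3). It was 85 (6 higher, 79 lower) without praliciguat replicates 3 and 4, and 364 (159 higher, 205 lower) in the lower run alone, settings chosen after the data were seen. Log2 fold changes that reversed did so without praliciguat replicates 3 and 4 (Gucy1a1 0.0238, Prkg1 0.12, Kcnma1 0.0246), in the lower run alone (Prkg1 0.354, Kcnma1 0.0317) or in the upper run alone (Gucy1a1 0.102, Gucy1b1 0.0678); the cause was not tested. With 1 library left out, the fold change of Gucy1a1 ranged from -0.189 to 0.0854 (0.0854 without placebo replicate 1, 0.0128 without praliciguat replicate 4), and that of Kcnma1 from -1.21 to -0.39. The others ranged from -0.452 to -0.1 (Prkg1), 0.0661 to 0.431 (Prkg2), -0.187 to -0.012 (Gucy1b1), -0.362 to -0.182 (Gucy1a2), -0.431 to -0.148 (Mrvi1) and -0.297 to -0.049 (Vasp). The alpha to beta-1 ratio difference was -0.0276 from CPM and -0.0703 to 0.111 with 1 library left out. The Prkg1 to Gucy1b1 ratio difference was 0.163 without praliciguat replicates 3 and 4. An adjusted p under 0.05 was reached by 3 pairs with log2(TPM + 0.1) and by 3 with log2 CPM centred in each group, in both cases the pairs among Gucy1a2, Prkg1 and Kcnma1. The permutation of the centred values made no allowance for the group means removed, so its p-values may be too small. No paired analysis was possible because the labels give no replicate numbers shared by the groups; replicates here are numbered in accession order. Depth limits Prkg2 and Gucy1a2 most, and with 1 library left out the exact test cannot go below 0.0571.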
